A study of Mus musculus with 57 samples.

Results

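SOX2 binding was compared in mouse embryonic stem (ES) cells before and 2 h after induction of the transcription factor GATA6, using the 4 peak lists of these cells, 2 at 0 h and 2 at 2 h, of 57 samples in the series. The series follows ES cells as they are driven toward primitive endoderm (PrE), and 30 of its samples come with peak lists. SOX2 was mapped by CUT&RUN, in which an antibody directs a nuclease to cut around the bound factor and the released fragments are sequenced. All 4 samples were KH2 ES cells, labelled strain C57BL/6, with the transgene TRE:GATA6-DSREd2, a single-copy TET-responsive element that drives tagged GATA6 and the red fluorescent reporter DsRed2. The 0 h cells had no doxycycline and grew in 2i medium, which holds an inhibitor of MEK, an inhibitor of GSK3 and LIF. The 2 h cells were moved to serum medium with LIF and 1 µg/mL doxycycline. The start of GATA6 and the change of medium therefore came together and cannot be told apart in this comparison. The 2 samples of a time point were labelled replicates, and the study states that replicate experiments were independent without saying for these samples whether cultures were separate, so the spread may be partly technical.

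SOX2 is a factor of the HMG-box family that binds short A/T-rich sites in the minor groove and, together with OCT4, holds ES cells in pluripotency. The pair often occupies a composite element in which a SOX site sits beside an octamer. GATA6 is a zinc-finger factor that starts the PrE program and binds sites built around the letters GATA, while NANOG is a homeodomain factor of the pluripotent epiblast. AP-1 factors, dimers of the FOS and JUN families, act downstream of growth factor and MAP kinase signals.

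All peaks of the 4 lists that shared at least 1 base were merged into 77328 regions, and each region was classed by the lists that had a peak in it. A gained region had a peak in both 2 h lists and in no 0 h list, a lost region the reverse, and a kept region a peak in all 4 lists. There were 6411 gained regions (8.29% of the merged regions), 3545 lost regions (4.58%) and 8982 kept regions (11.6%). A further 2520 regions had both 2 h lists and 1 of the 0 h lists, 4800 had both 0 h lists and 1 of the 2 h lists, and 51070 were not reproducible at either time. The 2 h lists differed in length, with 24071 peaks in replicate 1 and 52572 in replicate 2, against 31693 and 26824 at 0 h. When every list was cut to its 24071 peaks of lowest q-value, 49478 merged regions were left, of which 5286 were gained (10.7%), 4455 lost (9%) and 7582 kept (15.3%). The lost class was therefore larger at equal length, and the excess of gained over lost regions smaller. The counts rest on having both lists of a time point. Without 2 h replicate 1 there were 32492 gained regions, and without 2 h replicate 2 there were 11023 gained and 7725 lost. Without 0 h replicate 1 there were 9862 lost regions, and without 0 h replicate 2 there were 13880.

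**Figure D1:**
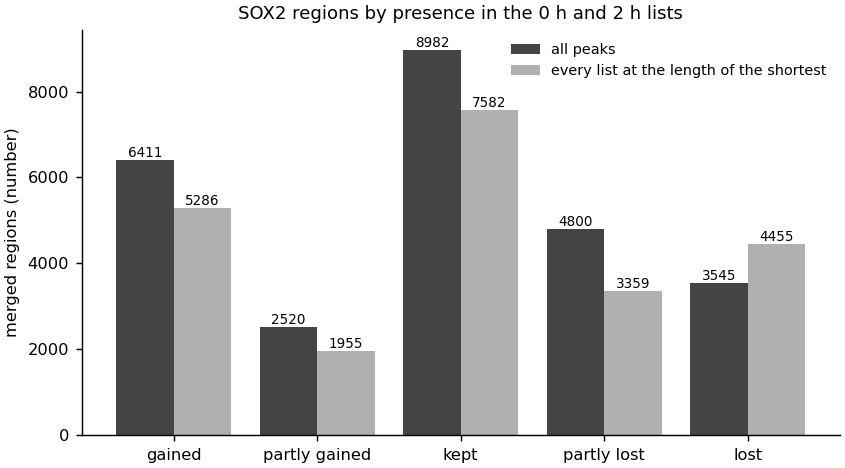
Number of merged SOX2 regions (vertical axis) in each class of presence in the 0 h and 2 h lists, with all peaks (dark bars) and with every list at the length of the shortest (light bars). Gained regions number 6411 and 5286, kept regions 8982 and 7582, and lost regions 3545 and 4455.

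Of the peaks in a list, at equal length, 61.9% to 64.8% overlapped a peak of the other list of the same time point, and 43.4% to 47.3% overlapped a peak of a list of the other time point. No pair of lists from different time points overlapped as much as the lists of 1 time point did. The lists were shallow. The fewest fragments at a called summit were 4 or 5, the median peak had 8 or 10, and the background away from peaks was 0.416 to 0.692 fragments per base. A region without a peak in a list may hold fragments below the calling limit, which the files do not show, so absence means absence of a call at this depth.

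The windows printed here are 201 bases of the GRCm38 reference on the plus strand, centred on the SOX2 summit. They were chosen because they show the letters that set the classes apart, so they do not represent their classes. Capitals mark matches on either strand. The SOX letters searched were CATTGT or CTTTGT. The letters for GATA factors were AGATAA or AGATAG or TGATAA or TGATAG. Those for AP-1 were TGACTCA or TGAGTCA. Capitals also mark the OCT-SOX composite, written here as a SOX site, then 1 base of any kind, then ATGC. Overlapping matches run together in 1 capital stretch. The first set holds gained regions. They are the one nearest Gm10401 at chr5:115062568-115062768 and the one nearest Irgc1 at chr7:24449276-24449476, both in introns, and intergenic and intronic regions near Klf5 at chr14:99331513-99331713 and Gata4 at chr14:63221685-63221885.
Gm10401, gained: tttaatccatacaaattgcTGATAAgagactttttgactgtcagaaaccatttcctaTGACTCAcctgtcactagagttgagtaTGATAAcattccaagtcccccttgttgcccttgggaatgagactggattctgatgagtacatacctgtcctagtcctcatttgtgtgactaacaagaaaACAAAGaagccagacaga
Irgc1, gained: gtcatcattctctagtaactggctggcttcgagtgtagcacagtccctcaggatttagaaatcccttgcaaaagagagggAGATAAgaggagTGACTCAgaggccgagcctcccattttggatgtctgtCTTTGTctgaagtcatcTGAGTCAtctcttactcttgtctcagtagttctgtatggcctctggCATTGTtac
Klf5, gained: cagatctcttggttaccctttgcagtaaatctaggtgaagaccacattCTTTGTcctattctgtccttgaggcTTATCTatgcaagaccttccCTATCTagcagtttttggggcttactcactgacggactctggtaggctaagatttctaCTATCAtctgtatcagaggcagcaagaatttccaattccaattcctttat
Gata4, gained: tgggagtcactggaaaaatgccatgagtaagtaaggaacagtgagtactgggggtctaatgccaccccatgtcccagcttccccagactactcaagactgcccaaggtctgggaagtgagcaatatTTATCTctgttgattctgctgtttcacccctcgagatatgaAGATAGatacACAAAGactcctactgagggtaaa
The Gm10401 and Irgc1 windows hold SOX, GATA and AP-1 matches, while the Klf5 and Gata4 windows hold SOX and GATA matches and no AP-1 match.

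The second set holds lost regions, both in introns, near Trpm1 at chr7:64058984-64059184 and near Sox13 at chr1:133411739-133411939.
Trpm1, lost: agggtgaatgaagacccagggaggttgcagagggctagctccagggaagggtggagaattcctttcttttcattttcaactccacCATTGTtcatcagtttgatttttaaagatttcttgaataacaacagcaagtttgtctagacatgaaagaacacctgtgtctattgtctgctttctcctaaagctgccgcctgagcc
Sox13, lost: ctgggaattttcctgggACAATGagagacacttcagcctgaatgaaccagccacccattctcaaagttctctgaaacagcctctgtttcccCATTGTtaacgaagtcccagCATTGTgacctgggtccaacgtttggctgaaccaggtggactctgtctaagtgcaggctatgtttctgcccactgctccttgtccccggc
Both windows hold SOX matches and no GATA or AP-1 match. The strongest lost region, near Nav2, is not printed and holds a GATA match and no SOX match. Among the strongest regions, those lost near Foxq1 and Dmrtb1 and that gained near Bub3 hold no SOX, GATA or AP-1 match.

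The third set holds kept regions. They are the Nanog promoter at chr6:122707233-122707433 and a region downstream of the Sox2 start at chr3:34653957-34654157, each with an OCT-SOX composite. The set also holds a pair of the strongest kept regions, near Trdn at chr10:33375640-33375840 and near Fbxl4 at chr4:22145034-22145234.
Nanog, kept: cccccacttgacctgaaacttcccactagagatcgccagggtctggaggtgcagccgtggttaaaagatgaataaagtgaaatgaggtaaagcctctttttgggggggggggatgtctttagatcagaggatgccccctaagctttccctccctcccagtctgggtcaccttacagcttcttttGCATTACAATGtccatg
Sox2, kept: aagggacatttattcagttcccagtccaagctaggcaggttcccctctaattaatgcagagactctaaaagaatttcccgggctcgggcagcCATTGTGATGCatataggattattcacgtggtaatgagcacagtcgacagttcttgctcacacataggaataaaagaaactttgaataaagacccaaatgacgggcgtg
Trdn, kept: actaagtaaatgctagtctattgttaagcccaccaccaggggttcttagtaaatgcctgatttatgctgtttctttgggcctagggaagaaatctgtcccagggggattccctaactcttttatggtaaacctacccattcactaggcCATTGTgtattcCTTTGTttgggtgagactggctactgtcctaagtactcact
Fbxl4, kept: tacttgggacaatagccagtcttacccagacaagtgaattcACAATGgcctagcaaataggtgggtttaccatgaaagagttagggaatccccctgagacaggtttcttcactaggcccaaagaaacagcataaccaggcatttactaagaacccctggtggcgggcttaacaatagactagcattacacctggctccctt
The Trdn and Fbxl4 windows lie in annotated repeats, over 90.0% and 100% of their length. Within 501 bases of the summits they share a run of 35 identical bases in opposite orientation.

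Gained and lost regions were both weaker than the kept regions of the same list. The fold enrichment over background, as the peak caller gave it, had a median of 6.02 and 8.37 in the 2 h lists for gained regions and of 5.65 and 5.76 in the 0 h lists for lost regions. Kept regions had medians of 9.18 and 9.52 at 0 h and of 7.27 and 11.1 at 2 h. At equal length the gained medians were 6.22 and 9.65 and the lost medians 6.36 and 6.35, so gained regions were above lost ones only in 2 h replicate 2. At least 10 fragments at the summit in both 2 h lists were found in 2483 gained regions (38.7%), and at least 10 in both 0 h lists in 886 lost regions (25.0%). Most gained and lost regions thus rested on under 10 fragments in at least 1 list. The median width of gained regions was 314 and 419 bp in the 2 h lists, that of lost regions 391 and 350 bp in the 0 h lists, and kept regions were wider in every list, at 428 to 632 bp. These values describe the classes, which were formed from the same lists, and were not tested.

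Gained regions lay away from promoters. Of the gained summits 267 (4.16%) were within 1 kb of a transcription start site (TSS) of a protein-coding gene, against 541 lost summits (15.3%), 1438 kept summits (16.0%) and 12.5% of all merged regions. The median distance to the nearest such TSS was 29.9 kb for gained, 22.4 kb for kept and 18.7 kb for lost regions. Introns held 47.9% of the gained, 38.0% of the kept and 40.5% of the lost summits, and intergenic sequence 44.0%, 42.7% and 39.3%. At equal length the shares within 1 kb were 3.58% gained, 14.5% kept and 15.8% lost. Among the 500 strongest regions of each class the shares were lower and closer together, at 1.60%, 4.20% and 5.20%.

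The strongest gained region lay in an intron 35.6 kb from the start of Gm10401, a predicted gene, with a fold of 34.5 and 56.1 and 49 and 94 fragments in the 2 h lists. It was followed by regions nearest to Cntnap2, a neuronal adhesion protein, with a fold of 33.0 and 46.9, and Irgc1, an immunity-related GTPase, with 24.3 and 49.9. The other 7 of the top 10 were nearest to Bub3, a spindle checkpoint protein, the SOX factor Sox4, 6030445D17Rik, the engulfment adaptor Elmo1, the protease Adam12, Pid1 and the signaling adaptor Tank. Their folds were 15.2 to 26.3 in the first 2 h list and 42.4 to 54.9 in the second. Each of the 10 also had a peak in both SOX2 4 h, both SOX2 8 h, both GATA6 2 h and both NANOG 2 h lists, and 9 of the 10 had none in either NANOG 0 h list, the exception being the Cntnap2 region. None was within 1 kb of a TSS, and the nearest named gene was up to 269 kb away, so the names give position and not a target.

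The strongest lost regions were weaker. The top region, in an intron 91.0 kb from the start of Nav2, had a fold of 26.8 and 21.6 with 37 and 33 fragments in the 0 h lists. The next, nearest to the cation channel gene Trpm1, had a fold of 14.3 and 26.9, and the third, nearest to the SOX factor gene Sox13, had 19.1 and 17.7. The other 7 were nearest to the forkhead factor Foxq1, Dmrtb1, the adaptor Clnk, Hacd2, Emc2, the glycosyltransferase A4galt and Jarid2, a subunit of Polycomb complex PRC2, with folds of 13.3 to 21.0 and 14.0 to 21.3. Of the 10, only the Trpm1 region was present in both SOX2 4 h and both SOX2 8 h lists.

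The motif content of the classes differed most at AP-1 and GATA letters. An AP-1 match lay within 100 bp of the summit in 38.5% of gained, 8.18% of kept and 1.21% of lost regions, against 12.2% of all merged regions. In windows of the same length 2 kb away the shares were 3.81%, 3.66% and 3.78%. A GATA match was found in 54.5% of gained, 32.4% of kept and 17.4% of lost regions and in 33.9% of all merged regions, against 33.6%, 33.1% and 31.2% in the windows 2 kb away. The gained regions were thus above their surroundings, the kept regions close to them, and the lost regions below them. At equal length AP-1 matches were in 40.6%, 8.40% and 1.30%, and GATA matches in 55.5%, 33.6% and 18.5%. The AP-1, KLF, ESRRB and TEAD letters were chosen once the data were at hand.

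SOX matches did not set gained and kept regions apart in the same way. They were in 46.6% of gained, 50.4% of kept and 41.9% of lost regions, above the windows 2 kb away, where they were in 26.2%, 26.95% and 25.8%. The OCT-SOX composite, the element of the joint OCT4 and SOX2 site, was rare at 0.421% of gained, 1.98% of kept and 0.846% of lost regions, against 0.613% of all merged regions. In the 500 strongest kept regions it was in 6.40%, and in the 500 strongest gained regions in 0.800%. Matches to KLF letters (GGGTGTG or GGGCGTG) were in 11.5%, 14.5% and 15.2% of gained, kept and lost regions, to ESRRB letters (AAGGTCA) in 7.10%, 9.19% and 7.84%, and to TEAD letters (GGAATG) in 19.0%, 18.1% and 12.6%. The shares in all merged regions were 11.5% for KLF, 6.81% for ESRRB and 15.1% for TEAD. Matches were counted on both strands.

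**Figure D2:**
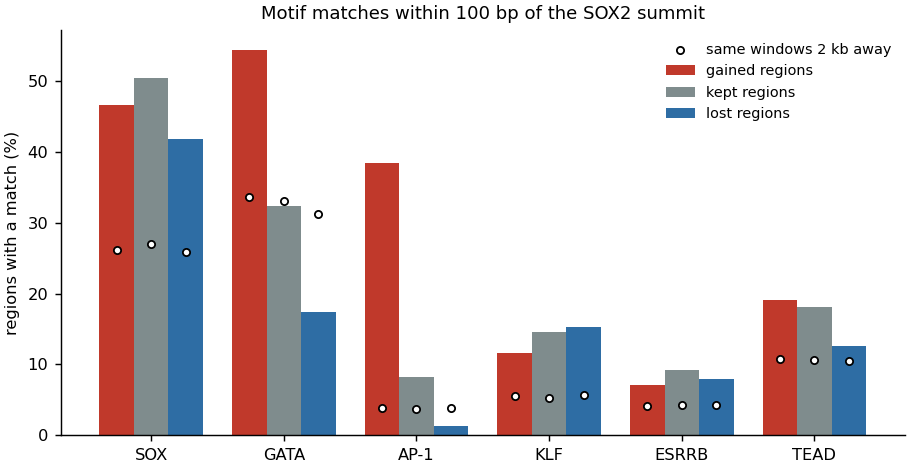
Share of regions (vertical axis, %) with a match to each set of letters within 100 bp of the SOX2 summit, for gained, kept and lost regions (bars) and for windows of the same length 2 kb away (circles). The AP-1 bar stands at 38.5% for gained and 1.21% for lost regions, and the GATA bars step down from 54.5% to 32.4% to 17.4%, while the SOX bars are all between 41.9% and 50.4%.

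The lists not used to form the classes also separated gained from lost regions. Of the gained regions 52.9% had a peak in both SOX2 4 h lists and 18.6% in both SOX2 8 h lists, against 6.09% and 1.18% of the lost and 72.4% and 34.4% of the kept regions. In all merged regions these shares were 20.4% and 7.76%. Of the lost regions 67.9% had a peak in no SOX2 4 h list and 92.4% in none at 8 h, against 59.6% and 83.5% of all merged regions. The SOX2 8 h lists were the shortest, with 14053 and 11538 peaks. The contrast was also present within bins of mean fold, taken over the 2 h lists for gained and over the 0 h lists for lost regions. Folds of different lists are not on 1 scale, so the bins match strength only roughly. Among regions with a mean fold of 10 or more, 85.4% of 1383 gained regions and 9.09% of 165 lost regions were in both SOX2 4 h lists, and between a mean fold of 5 and 7 the shares were 36.7% of 2177 and 5.89% of 1663.

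GATA6 peaks coincided with most gained regions. A peak in both GATA6 2 h lists was found in 5025 gained (78.4%), 7575 kept (84.3%) and 810 lost regions (22.9%), against 37.6% of all merged regions. In the GATA6 0 h lists, taken before induction and holding 84 and 880 peaks, no gained region had a peak in both. Where both GATA6 2 h lists had a peak, the distance from the SOX2 summit to the nearest GATA6 summit was taken. Its median was 44 bp in gained, 42 bp in kept and 55 bp in lost regions. These regions were picked for having GATA6 peaks at the SOX2 site, so a short distance is partly set by that choice. The distances were not compared with those at shifted positions, so closeness of the summits was not tested. NANOG differed before induction. A peak in either NANOG 0 h list was found in 9.17% of gained, 69.2% of kept and 29.0% of lost regions. The share in all merged regions was 17.6%. At 2 h, 50.7% of gained, 69.4% of kept and 7.64% of lost regions had a peak in both NANOG lists, against 20.6% of all merged regions. NANOG had 10691 and 16178 peaks before induction against 52283 and 26740 afterwards, and the shares were not adjusted for that. With the SOX2 lists at equal length, both GATA6 2 h lists had a peak in 83.3% of gained, 87.5% of kept and 31.8% of lost regions, either NANOG 0 h list in 11.0%, 73.3% and 35.9%, and both SOX2 4 h lists in 60.9%, 78.2% and 10.0%. All merged regions at equal length had shares of 49.9%, 26.1% and 30.2% for these measures.

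**Figure D3:**
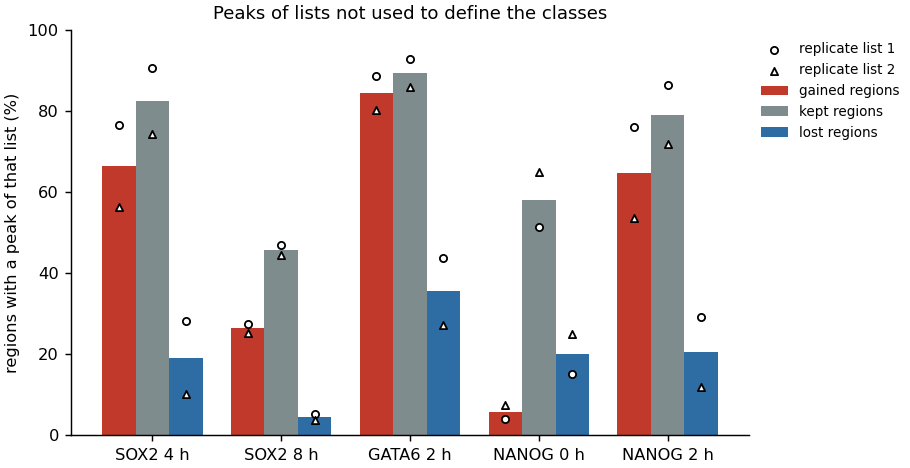
Share of gained, kept and lost SOX2 regions (vertical axis, %) with a peak in lists that did not define the classes. Bars are the mean of the 2 replicate lists and symbols the lists themselves. Gained regions are close to kept regions in the GATA6 2 h lists and lowest of the 3 classes in the NANOG 0 h lists.

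GATA and AP-1 letters marked partly different gained regions. GATA alone was in 2345 gained regions, AP-1 alone in 1317, both in 1149 and neither in 1600. A peak in both SOX2 8 h lists was found in 32.1% of the gained regions with GATA alone, 17.8% with both, 6.00% with AP-1 alone and 9.63% with neither. A peak in both GATA6 2 h lists was found in 90.6%, 86.3%, 66.7% and 64.4% in the same order. Median folds were 6.04 and 8.27 for GATA alone and 6.22 and 9.42 for AP-1 alone, so strength in the 2 h lists did not order these groups in the same way. In the 601 gained regions with a peak in no GATA6 2 h list, a GATA match was in 23.1% and an AP-1 match in 43.3%. None of these 601 was in both SOX2 8 h lists, and 8.82% were in both SOX2 4 h lists. These 601 were also weaker, with median folds of 4.84 and 6.40 in the 2 h lists. Gained regions with a peak in both GATA6 2 h lists had 6.19 and 8.93. Whether strength accounts for the low shares was not tested.

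The same measures taken list by list, which do not use the classes, were tested over all 8 SOX2 lists at 0, 2, 4 and 8 h by an exact permutation test, since 2 lists against 2 allow no two-sided p below 0.333. Its p is for any difference among the 4 time points and does not test 2 h against 0 h alone. The share of peaks with a GATA match was 24.8% and 25.7% in the 0 h lists, 40.2% and 38.3% at 2 h, 44.4% and 47.5% at 4 h, and 51.5% and 55.6% at 8 h. The lists of different time points did not overlap. The mean at 2 h was 14.0 percentage points above that at 0 h (39.2% ± 1.32 against 25.3% ± 0.638, SD, n = 2 each). The exact permutation test over the 4 time points gave p = 0.00952, the smallest its 2520 arrangements allow, and 0.0762 after Benjamini-Hochberg adjustment over 8 tests, which misses the threshold of 0.05. With every list cut to 11538 peaks the 2 h lists were 18.7 points above the 0 h lists. The exact permutation test over the 4 time points then had an adjusted p of 0.0254.

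The share of peaks within 1 kb of a TSS was 18.0% and 16.2% at 0 h and 11.5% and 11.1% at 2 h, then 14.1% and 12.7% at 4 h and 17.7% and 16.6% at 8 h. The 2 h lists were the lowest of the 8, and the 0 h and 8 h lists overlapped. The 2 h mean was 5.79 points below the 0 h mean. Over the 4 time points the exact permutation test had an adjusted p of 0.114, and of 0.0457 at 11538 peaks a list. The share with an AP-1 match was 3.99% and 4.08% at 0 h, 17.7% and 16.0% at 2 h, 14.2% and 15.0% at 4 h, and 9.45% and 10.0% at 8 h, and was not tested. The highest AP-1 shares were thus in the 2 h lists and the lowest in the 0 h lists, with no overlap between time points, whereas the GATA shares were highest at 8 h.

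The median peak width was 380 and 367 bp at 0 h against 316 and 297 bp at 2 h, a difference of -67 bp. The exact permutation test over the 4 time points had an adjusted p of 0.229. At 11538 peaks a list the widths were 617 and 559.5 bp at 0 h against 429 and 558 bp at 2 h, and the second 2 h list came close to the 0 h lists. The share of peaks overlapping a GATA6 region present in both 2 h lists was 48.6% and 53.9% at 0 h and 71.1% and 50.6% at 2 h, and the 2 time points overlapped. At 11538 peaks it was 72.2% and 71.7% against 88.5% and 88.7%, and they no longer overlapped. Over the 4 time points the exact permutation test had an adjusted p of 0.229 before and 0.0254 after the cut. The share overlapping a NANOG 0 h peak was 35.5% and 42.1% at 0 h and 35.2% and 21.9% at 2 h. At 11538 peaks it was 65.3% and 68.3% against 51.6% and 51.8%, and the 4-point exact permutation test had an adjusted p of 0.432 before and 0.0254 after the cut. With all peaks, the longer 2 h list had the lower value of both measures. The share with a SOX match was 37.9% and 43.1% at 0 h and 45.0% and 40.7% at 2 h. At 11538 peaks it was 46.2% and 50.2% at 0 h, 52.1% and 53.9% at 2 h, 52.1% and 52.8% at 4 h, and 42.2% and 44.6% at 8 h, so the 8 h lists stood further from the 2 h lists than the 0 h lists did. The 4-point exact permutation test had an adjusted p of 0.8 before and 0.0381 after the cut. The composite was in 0.868% and 1.13% of peaks at 0 h and in 1.12% and 0.749% at 2 h, and the 4-point exact permutation test had an adjusted p of 0.795. Between all peaks and 11538 peaks its 2 h minus 0 h difference turned from -0.0631 to 0.0997 points. Without 2 h replicate 1 the GATA6 difference was -0.680 points in place of 9.58, and without 0 h replicate 1 the SOX match difference was -0.260 points in place of 2.31. Without 0 h replicate 2 or 2 h replicate 2 the composite difference was 0.0679 or 0.123 points.

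**Figure D4:**
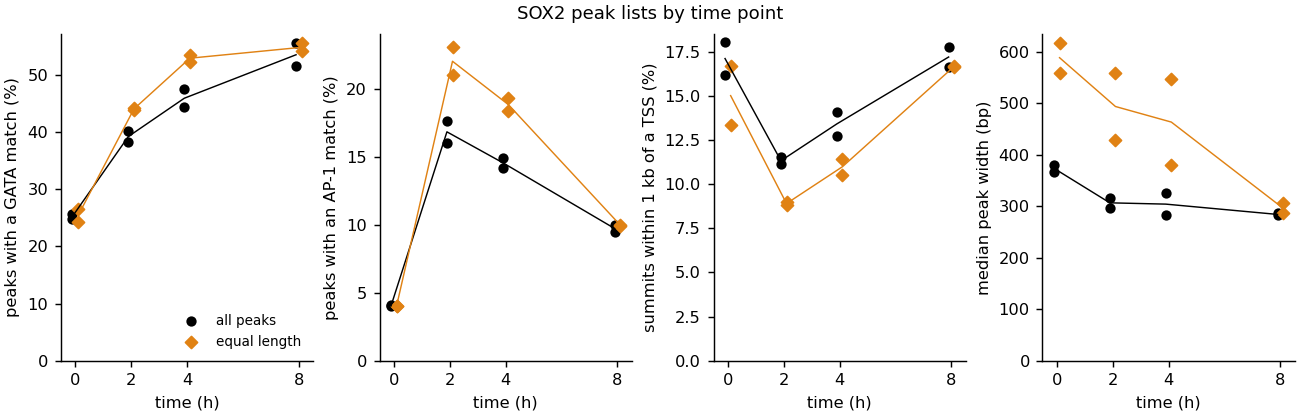
Values of the 8 SOX2 lists by time point (horizontal axis, hours), with all peaks (black) and with every list cut to 11538 peaks (orange). Points are lists and lines join the means. From left to right the panels give the share of peaks with a GATA match, the share with an AP-1 match, the share of summits within 1 kb of a TSS and the median width. The GATA share is lowest at 0 h and highest at 8 h, the AP-1 share is highest at 2 h, and the promoter share is lowest at 2 h.

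Kept regions were compared by their fold in each list, on a log2 scale after subtraction of that list's median over the 8982 kept regions, so that a value gives a region's strength relative to the other kept regions and not total binding. Both 2 h values lay above both 0 h values in 2340 kept regions (26.1%) and below them in 2496 (27.8%), and in 4146 the time points overlapped. With only 6 arrangements of 2 lists against 2, regions would fall in each group without any difference. The counts were not tested. The median difference was 0.70 in the first group and -0.67 in the second, and 1123 kept regions (12.5%) differed by at least 1 on the log2 scale. Across kept regions, which are not independent replicates, Pearson's r was 0.775 between the 0 h lists, 0.782 between the 2 h lists and 0.474 to 0.537 between lists of different time points. An AP-1 match was in 18.5% of the kept regions that were higher at 2 h and 1.60% of those that were lower, and a GATA match in 47.5% and 21.9%. Both GATA6 2 h lists had a peak in 93.1% and 79.5%, and both SOX2 8 h lists in 46.0% and 26.2%. Summits within 1 kb of a TSS made up 8.97% and 16.2%. The kept regions that were higher thus had more of the letters of gained regions, and those that were lower fewer.

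**Figure D5:**
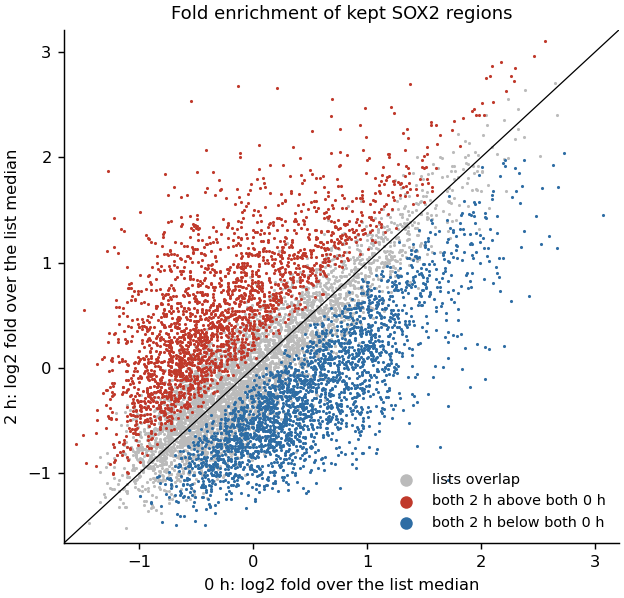
Each point is 1 of the 8982 kept SOX2 regions, with the mean log2 fold over the list median at 0 h (horizontal) and at 2 h (vertical). Red marks the 2340 regions where both 2 h values exceed both 0 h values, blue the 2496 where both are below, and the line marks equal values.

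The strongest kept region, in an intron and nearest to Trdn, had a fold of 58.8 and 51.5 at 0 h and 49.7 and 119 at 2 h. The next were nearest to Car8, with 49.4 and 54.0 at 0 h and 58.0 and 83.9 at 2 h, to Rbpj, the DNA-binding partner of NOTCH, with 64.3 and 53.3 against 43.5 and 78.0, and to Fbxl4 and Gm28710. Of these 5 regions, those near Trdn, Fbxl4 and Gm28710 shared runs of 35 to 62 identical bases. Repeats covered 90.0% of the Trdn, 92.0% of the Car8, 100% of the Fbxl4 and 77.1% of the Gm28710 window, and none of the Rbpj window. Reads from near-identical repeat copies can be placed at the wrong copy, so the fold of a single copy is uncertain. Summits in repeats made up 23.6% of kept, 17.2% of gained and 19.4% of lost regions, against 26.9% to 28.5% of positions 2 kb away, and 31.2%, 10.8% and 19.6% of the 500 strongest of each class.

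The largest differences upward among kept regions were near Cartpt, a neuropeptide gene, Pde6a, Vps45, Bclaf1 and Plxnc1. The Cartpt region had a fold of 3.61 and 4.13 at 0 h and 22.4 and 47.9 at 2 h, a difference of 3.15 on the log2 scale. The largest differences downward were near 4930452B06Rik, Naa30, a subunit of an N-terminal acetyltransferase, the phosphatase gene Ptpn14, the SOX factor gene Sox5 and Zc3h13. The region nearest 4930452B06Rik had 33.3 and 28.0 at 0 h and 3.47 and 5.28 at 2 h, a difference of -2.77. The Sox5 region had 35.3 and 41.5 at 0 h and 4.70 and 14.8 at 2 h. These 10 regions were picked from the kept regions where both 2 h values lay on 1 side of both 0 h values.

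Regions were then assigned to the protein-coding gene with the nearest TSS within 50 kb. Of 21911 such genes 3141 (14.3%) had a gained and 2159 (9.85%) a lost region, and 4448 (20.3%) a kept one. The genes with most gained regions were Etl4 with 10, which also had 8 kept and 3 lost regions, and Bhlhe40, Klf6, Pde4d and Tenm4 with 6 each. Those with most lost regions, 4 each, were Auts2, Gnas, Lhfpl2, Map4k3, Sh3pxd2a and Xpnpep1. These genes were picked by their counts. Lists of genes by role were read against the shares of all genes.

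Pluripotency genes held more SOX2 regions of each class than the average gene. Of 30 core and naive pluripotency genes 26 had a kept region, 12 a gained region and 12 a lost region (40.0% each). The shares of all genes were 20.3% kept, 14.3% gained and 9.85% lost. They held 0.467 gained, 0.667 lost and 1.73 kept regions a gene, against 0.184, 0.114 and 0.276 over all genes. Of their 52 kept regions 8 were higher and 24 lower at 2 h (15.4% and 46.2%, against 24.0% and 28.0% of the 6050 kept regions of all genes), with a median difference of -0.30 on the log2 scale against -0.06. At Nanog itself, 3 regions were kept and none gained or lost. The Nanog region 4.71 kb upstream of the start had a fold of 40.7 and 41.6 at 0 h and 21.7 and 21.9 at 2 h, and the promoter region printed above had 7.72 and 10.9 against 3.91 and 5.60. Both were lower in each 2 h list. At Sox2 the region printed above, 3.65 kb downstream of the start, had 8.48 and 11.4 at 0 h and 7.60 and 13.1 at 2 h, and the time points overlapped.

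Pou5f1, which encodes OCT4, had kept regions 3.23 and 1.84 kb upstream of the start that were lower, a kept promoter region that was higher (5.41 and 8.42 at 0 h, 10.3 and 15.4 at 2 h) and 1 lost region. Prdm14, a repressor that guards naive pluripotency, had 1 gained and 3 lost regions, and its strongest region, 42.1 kb downstream of the start, had 42.4 and 36.2 at 0 h and 11.7 and 27.8 at 2 h. The nuclear receptor gene Esrrb had 1 gained region, 22.7 kb upstream, and 3 lost regions in its introns with folds of 4.44 to 7.77. The methylcytosine dioxygenase gene Tet2 and the LIF feedback gene Socs3 also had 3 lost regions and 1 gained region each. Klf5 was the pluripotency gene with most gained regions, at 3. That 32.5 kb downstream of its start, printed above, had folds of 11.4 and 17.0 at 2 h and a peak in both GATA6 2 h, both SOX2 4 h and both SOX2 8 h lists. Tfcp2l1 had 2 kept regions and no gained or lost one, and Klf4 had no reproducible region assigned to it.

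PrE genes had more gained than lost regions, as did all genes together. Of 30 PrE genes 10 had a gained region (33.3%) and 6 a lost region (20.0%), with 19 gained and 7 lost regions, so that 73.1% of their gained and lost regions were gained, against 61.8% over all genes. Of all genes 14.3% had a gained and 9.85% a lost region, so both PrE gene shares were above those of all genes. At equal length there were 18 gained and 11 lost regions (62.1% gained, against 51.4%). These lay at 10 and 7 PrE genes (33.3% and 23.3%, against 12.1% and 11.9% of all genes). Gata6, whose product is also supplied by the transgene, had 2 gained regions 47.6 and 45.5 kb upstream, with folds of 7.84 and 8.71 and of 11.6 and 17.4, and no kept or lost one. Gata4, its paralog in the PrE program, had a gained region 8.18 kb upstream, printed above, with 5.46 and 8.72. Pdgfra, a receptor that marks PrE, had 3 gained regions 34.0, 15.1 and 5.83 kb upstream with folds of 3.72 to 10.6, and 3 kept regions, of which 2 were lower and 1 higher. The laminin gene Lamc1 and Sparc also had 3 gained regions each. All of the gained regions at Gata6, Gata4 and Pdgfra had a peak in both GATA6 2 h, both SOX2 4 h and both SOX2 8 h lists. The Lamc1 promoter region was lost, with 6.12 and 5.05 at 0 h. Sox17 had a kept region only, 1.01 kb downstream of its start, with 6.19 and 4.27 at 0 h and 3.63 and 5.11 at 2 h. Sox7, Foxa2 and Dab2 had no reproducible SOX2 region within 50 kb.

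Genes of the ERK and serum response, of which 28 of 30 listed were matched, had a gained region in 12 and a lost one in 8. The shares were 42.9% and 28.6%, against 14.3% and 9.85% of all genes, with 19 gained and 11 lost regions. At equal length there were 9 and 11 genes (32.1% and 39.3%, against 12.1% and 11.9% of all genes). Of their 22 kept regions 5 were higher and 5 lower (22.7% each, against 24.0% and 28.0% over all genes). Klf6, an early response factor, had 6 gained regions within 33.7 kb of its start, the strongest 25.6 kb downstream with 13.1 and 19.5. Spry4, a feedback inhibitor of receptor tyrosine kinases, had 2 gained regions, of which 1 had 24.2 and 36.6 at 2 h, and 1 lost. Phlda1 had 2 gained regions. The ERK phosphatase gene Dusp6 had 1 gained region 23.7 kb downstream with 6.62 and 13.7 and 2 kept ones, and Spry2 had 3 kept regions, 1 higher and 1 lower. Of the immediate early genes in the list, Ier3, Atf3 and Myc had 1 gained region each. No region was gained at others of them, namely Egr1, Egr2, Egr3, Fos, Fosb, Jun, Junb and Ier2. The Egr1 promoter region was lost, with 4.47 and 4.74 at 0 h, Fos had 1 kept region 18.6 kb upstream where the time points overlapped, and Ier2 had 3 lost regions. Lif had 1 gained and 2 lost regions.

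In the formative and primed epiblast list, 2 of 19 genes had a gained region, Sox4 and Foxd3, and 6 had a lost one. The shares were 10.5% and 31.6%, against 14.3% and 9.85% of all genes. Etv5, an ETS factor downstream of FGF signals, had 3 lost and 6 kept regions. Otx2, the factor of formative pluripotency, had 4 kept regions, of which those 7.92 kb downstream (19.5 and 21.7 at 0 h, 7.60 and 13.6 at 2 h) and 27.4 kb upstream were lower. Fgf5 had no reproducible region. Of 20 WNT target genes 4 had a gained and 6 a lost region (20% and 30%, against 14.3% and 9.85% of all genes). Of their 14 kept regions 2 were higher and 6 lower (14.3% and 42.9%, against 24.0% and 28.0% over all genes). Axin2, a feedback inhibitor of WNT, had 2 kept regions, and the one 9.51 kb upstream was higher (5.50 and 3.57 at 0 h, 8.04 and 14.2 at 2 h).

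Of 15 trophectoderm genes 5 had a gained and 4 a lost region (33.3% and 26.7%, against 14.3% and 9.85% of all genes). They held 9 gained and 4 lost regions, and at equal length 9 and 2. At equal length 81.8% of these were thus gained, against 62.1% for PrE genes and 51.4% over all genes. Elf5, a trophoblast stem cell factor, had 4 gained regions, the strongest 10.8 kb upstream with 11.4 and 20.4, and the keratin gene Krt18 had 2. At equal length Elf5 held 4 of the 9 gained regions, the keratin gene Krt8 2 and Krt18 1. The share of 81.8% thus rests on few regions at few genes. The promoter region of Cdx2, a master factor of trophectoderm, was lost with 3.27 and 5.03. Genes of other lineages served as a comparison. Of the 29 matched of 30 listed, 5 had a gained region, 3 a lost and 3 a kept one (17.2%, 10.3% and 10.3%), and Pax5, a B cell factor, was among those with a gained region. For all genes the shares were 14.3%, 9.85% and 20.3%. In the ES cell lists, then, kept regions were found at 86.7% of pluripotency genes and at 10.3% of the genes of other lineages, which is the check of the cell label that peak lists allow.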

How the data were processed

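SOX2 CUT&RUN peak lists of KH2 ES cells at 0 and 2 h (2 each) were compared, with the SOX2 lists at 4 and 8 h and the GATA6 and NANOG lists at 0 and 2 h as measures that did not define the classes. The authors aligned paired-end reads to mm10 (GRCm38) with Bowtie2, removed blacklisted regions, kept duplicates and called narrow peaks with MACS for each replicate against a control library; SAMtools and Picard are also named. The deposited peaks carry a fold enrichment ratio over local background and the −log10 of p- and q-values, and summit positions. Read totals from the study's supplement were not used here; fragments at a summit were recovered from the deposited fold and p-value (whole within 0.0002 for at least 99.98% of SOX2 peaks). Counting error is all that such fragment numbers show, and reads carry no molecular identifiers.

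Peaks on chrM and contigs (2 a list) were left out. Regions were merged at 1 bp overlap. TSSs came from GENCODE M21, motif letters were searched on both strands within 100 bp of the summit. List values were tested by a two-sided exact permutation F test over 8 lists in 4 time points, Benjamini-Hochberg adjusted over 8 tests, in Python 3.11.15 (numpy 2.4.6, pandas 2.3.3, scipy 1.17.1, statsmodels 0.14.6, pysam 0.24.0), and the code was tested on simulated data. Alternatives were other list lengths (24071, 11538 and 10000 peaks), a −log10 q of at least 5, other windows, overlaps and TSS sets, each list left out, and a replicate block.

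Named regions were the 10 gained and 10 lost with the highest mean fold and the 5 strongest kept. They also included the 5 kept with the largest difference each way, among kept regions whose time points did not overlap. Genes were preset names in 7 lists (171 of 174 matched) and, in each list, those with most gained and lost regions. The members and lists were chosen with earlier results of these data known.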

Additional observations from a re-analysis of the deposited data

How the results depend on the processing

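The counts of regions depended on the lists used. With each list's 10000 peaks of highest −log10 q there were 2691 gained, 2309 lost and 3334 kept regions, and with a −log10 q of at least 5 there were 4034 gained and 5352 kept regions. Leaving out 1 list at a time gave 7599 to 32492 gained, 4177 to 13880 lost and 9565 to 13150 kept regions, the extremes coming from time points left with 1 list. Gained regions numbered 32492 without 2 h replicate 1 and 11023 without 2 h replicate 2. Lost regions numbered 9862 without 0 h replicate 1, 13880 without 0 h replicate 2 and 7725 without 2 h replicate 2. Kept regions higher at 2 h ranged from 3268 to 3416 and lower ones from 3449 to 3663 when 1 list was left out. The call then set 1 value against 2, which is met more readily than 2 against 2 without any difference. These counts therefore do not show that the calls are stable.

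With every list cut to 11538 peaks, the 2 h minus 0 h differences were 18.7 percentage points for GATA matches, 16.7 for GATA6 overlap, -15.1 for NANOG overlap, 4.81 for SOX matches and -6.11 for promoters. The exact permutation test over the 4 time points, which is not a test of these differences, had an adjusted p of 0.0254 for the first 3 measures, 0.0381 for SOX matches and 0.0457 for promoters, and passed the threshold only after a cut. The cause was not tested. With 10000 peaks it passed for GATA matches (18.8 points), GATA6 overlap (15.9) and NANOG overlap (-15.9). The composite difference reversed to 0.0997 points at 11538 peaks and 0.09 at 10000. Leaving out 1 list gave -6.70 to -4.87 points for promoters, -0.680 to 19.8 for GATA6 overlap, -16.9 to -3.58 for NANOG overlap, -0.260 to 4.88 for SOX matches, -0.249 to 0.123 for the composite, 13.0 to 14.9 for GATA matches, -76.5 to -57.5 bp for width and -0.28 to 0.85 for the log2 number of peaks. The negative number was without 2 h replicate 2, the negative GATA6 value without 2 h replicate 1 and the negative SOX value without 0 h replicate 1.

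The samples were treated as unpaired. Over 3211 regions in all 8 lists, replicate differences correlated by -0.0942 to 0.0648 between time points. In lists this shallow such values cannot exclude that replicates of the same number shared a culture. With a replicate block the GATA share, 14.0 points higher at 2 h, gave p = 0.0417 (adjusted p = 0.333) when time points were permuted exactly within replicate numbers. That is the smallest p the block allows, so with all peaks it says nothing about stability, and it was not run on the shortened lists. Depth limits what absence of a peak means: summits were called from 4 or 5 fragments upward, and 38.7% of gained regions had at least 10 in both 2 h lists.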
